A study of Mus musculus with 30 samples.

Results

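Oct4, Sox2 and the partner genes Sall4 and Utf1 were followed at the RNA level through the exit from pluripotency and after induction of reprogramming factors in mouse secondary induced pluripotent stem cells (iPSCs). They were chosen by name, as the rows of the expression table for Pou5f1 (the symbol of Oct4), Sox2, Sall4 and Utf1, and are 4 of the 22477 genes in that table. All 15 conditions of the series were read for them.

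OCT4 is a POU-domain and SOX2 an HMG-box transcription factor, and they bind next to each other on composite DNA elements in the enhancers of many pluripotency genes, among them their own. SALL4 is a zinc-finger factor that binds OCT4 and recruits the NuRD deacetylase complex. UTF1 is a chromatin-bound protein of undifferentiated cells whose gene carries a well-known OCT4-SOX2 element in its 3′ enhancer. Embryonic stem cells depend on OCT4 within a narrow range of levels, and its loss turns them towards trophoblast.

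All 15 conditions share 1 genetic background, with transgenes for Oct4, Sox2, Klf4 and cMyc (together OSKM) that doxycycline (dox) switches on, a GFP gene in place of 1 Nanog allele and a nuclear RFP that is always on. They were kept on mouse embryonic fibroblast feeders in serum/LIF, moved to 2i/LIF (inhibitors of MEK and GSK3 with the cytokine LIF), and then differentiated in N2B27 medium lacking these factors. RNA of 7 conditions was taken during differentiation itself, after 0, 24, 36, 48, 60, 72 and 96 h without 2i/LIF. For 8 more, cells that had differentiated over 0, 24, 48 or 96 h went back into serum/LIF and were collected 48 h later, either untreated (-dox) or given dox at 2 µg/ml (+dox). Each condition had 2 replicates and the series 30 samples. For the colony assay, the methods place cells on gelatin before withdrawal and on fibroblast feeders at re-seeding, and whether this also held for the RNA samples is not stated in the sources used here. For each gene and condition the authors deposited 1 FPKM value (fragments per kilobase of transcript, scaled to the number of mapped fragments), which combines both replicates. No spread between replicates can therefore be given, and no difference was tested. A gene was called higher or lower at a 2-fold difference or more, provided that 1 of the values reached 1 FPKM. In bulk RNA, fewer expressing cells and less RNA per cell cannot be told apart. For the OSKM genes a +dox value may include transgene RNA, because the table has 1 row per gene symbol.

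The labelled cell type was checked against 10 pluripotent cell markers. All 10 were at 1 FPKM or more at 0 h, with a summed level of 5819 FPKM, and the sum was 632 FPKM at 96 h and 294 FPKM in the 96 h -dox cells. Dppa5a alone made up 4620 FPKM of the first of these sums, and the 9 others summed to 1199, 471 and 242 FPKM in the same conditions. At 96 h 7 of the 10 were lower than at 0 h and 2 were higher, the RNA-binding protein gene Lin28a (30.6 and 188 FPKM) and the epithelial adhesion gene Epcam, where 16.4% of all genes were lower and 16.8% higher. Markers of another cell type were detected at the start of the time course. The 12 fibroblast markers summed to 896 FPKM at 0 h, with 11 of them at 1 FPKM or more and Col1a1 the most abundant at 229 FPKM. Their sum was 83.2 FPKM at 24 h and between 23.9 and 45.8 FPKM from 36 to 96 h. In the cells re-seeded from 0 h the sum was 9.68 FPKM without dox and 14.9 FPKM with dox. Every difference from 0 h below carries this change in fibroblast marker RNA, whose part in the result was not tested, so values of the 4 genes relative to 24 h are also given, with those of some of the lists. The other lists are compared with 0 h alone.

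The stretches upstream of the start site are shown for the 3 genes whose promoters are in the RefSeq table of build GRCm38.p6 (mm10), because the members are regulators that act on promoters and enhancers, their own included. Each runs 5′ to 3′ on the plus strand and ends before the earlier of the RefSeq and Gencode starts. Capitals mark matches on either strand to the GC box GGGCGG and to the SOX motif CTTTGT. Overlapping matches share capitals.
Pou5f1, chr17:35505782-35506017: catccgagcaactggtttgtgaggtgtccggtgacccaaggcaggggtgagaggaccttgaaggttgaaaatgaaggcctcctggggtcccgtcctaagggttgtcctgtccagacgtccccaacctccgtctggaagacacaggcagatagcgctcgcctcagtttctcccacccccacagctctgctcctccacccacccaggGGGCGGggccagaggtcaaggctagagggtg
Sox2, chr3:34649745-34649994: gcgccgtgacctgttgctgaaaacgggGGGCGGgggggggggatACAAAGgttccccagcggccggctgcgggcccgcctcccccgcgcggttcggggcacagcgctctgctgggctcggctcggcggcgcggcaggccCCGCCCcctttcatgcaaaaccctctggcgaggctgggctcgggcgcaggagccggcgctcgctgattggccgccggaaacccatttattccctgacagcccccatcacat
Utf1, chr7:139943606-139943788: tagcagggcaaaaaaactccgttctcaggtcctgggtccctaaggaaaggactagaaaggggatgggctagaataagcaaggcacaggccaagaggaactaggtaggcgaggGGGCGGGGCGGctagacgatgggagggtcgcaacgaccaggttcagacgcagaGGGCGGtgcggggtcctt

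These promoters are rich in G and C, at 61.9% in the Pou5f1, 72.0% in the Sox2 and 59.6% in the Utf1 stretch. The GC box was found 1 time in the Pou5f1, 2 times in the Sox2 and 3 times in the Utf1 stretch, which are 236, 250 and 183 bases long. When the 32851 RefSeq promoter windows of 300 bases were shortened to these lengths, 30.8%, 32.7% and 21.5% of them held it. The part of the Utf1 window that is not shown holds 1 more match. The motif CTTTGT was found 1 time upstream of Sox2 and is in 16.5% of windows of that length. The octamer ATGCAAAT and the second SOX motif CATTGT were not in these stretches and are in at most 1.6% and 10.7% of windows of these lengths. A match describes letters only. The enhancers of these genes lie outside the stretches shown and were not analysed here.

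Pou5f1 lies on chromosome 17 from 35506018 to 35510772 on the plus strand of mm10, in the Gencode annotation. Sox2 is a single-exon gene on chromosome 3 from 34650405 to 34652461 on the plus strand, inside the longer noncoding gene Sox2ot. Sox2ot is on the same strand and has no row of its own in the table, so any Sox2ot reads over this stretch cannot be told apart from those of Sox2. Sall4 lies on chromosome 2 from 168748332 to 168767943 on the minus strand, and Utf1 on chromosome 7 from 139943789 to 139945112 on the plus strand. An antisense gene, Gm19553, lies on chromosome 17 from 35509077 to 35510551, wholly within Pou5f1. Whether counting used strand is not stated in the sources used here, so reads of Gm19553 and Pou5f1 cannot be told apart.

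The 4 genes took different courses during 2i/LIF withdrawal, as the plot of their levels shows. Utf1 was higher than at 0 h at all 6 later timepoints, Sox2 was lower from 36 h on, Pou5f1 was lower only at 96 h, and Sall4 passed the 2-fold limit at no timepoint.

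**Figure D1:**
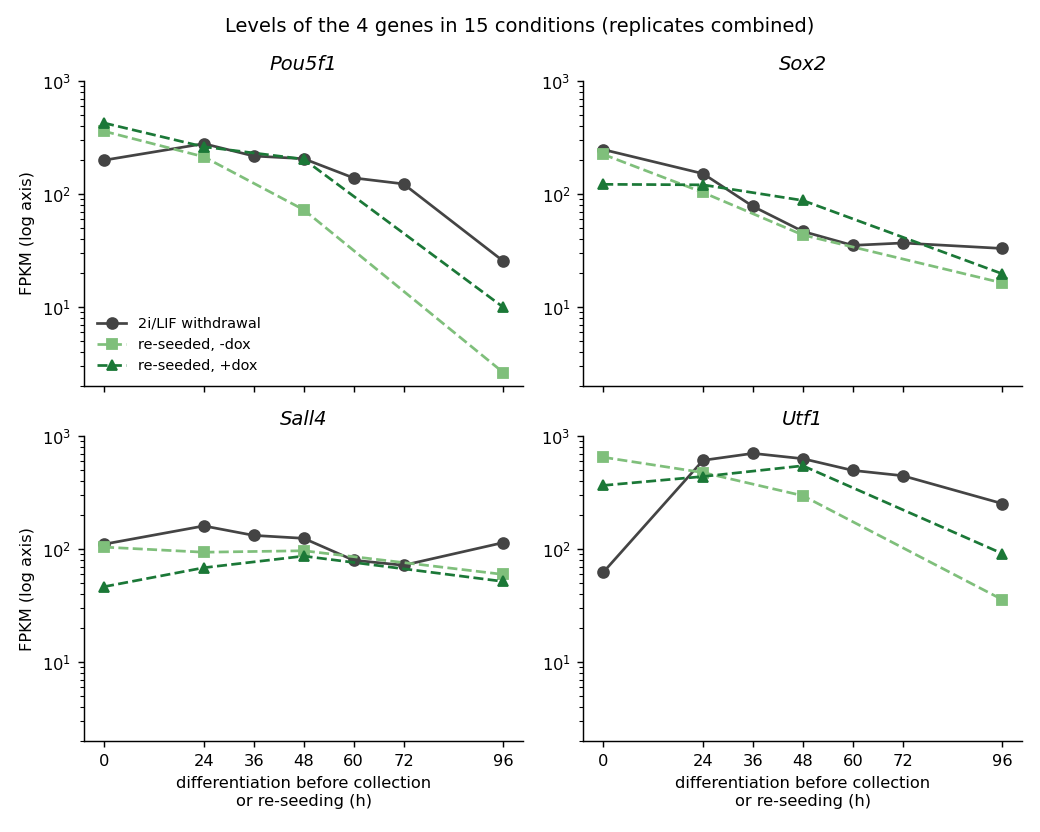
FPKM of Pou5f1, Sox2, Sall4 and Utf1 (log axis) against hours of differentiation before collection (grey circles, 2i/LIF withdrawal) or before re-seeding for 48 h without dox (light green squares) or with dox (dark green triangles). Each point is 1 value that combines 2 replicates, so there are no error bars. Pou5f1 drops from 123 to 25.5 FPKM between 72 and 96 h, while Sall4 stays between 46.7 and 161 FPKM in all 15 conditions.

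Pou5f1 stood at 199, 279, 217, 205, 139, 123 and 25.5 FPKM at 0, 24, 36, 48, 60, 72 and 96 h. Its level was thus held within 2-fold of the starting value for 72 h and then fell by 2.27 on the log2 scale in the last 24 h. Counted from the most abundant gene, it ranked 519 at 0 h, 692 at 72 h and 3628 at 96 h.

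Sox2 stood at 248, 151, 77.7, 46.7, 35.1, 36.9 and 33.0 FPKM at the same times. The decline was early and stepwise, and from 60 h on the values lay close together. Its log2 ratio to 0 h was inside the limit at 24 h (-0.71) and past it at 36 h (-1.67), 48 h (-2.41) and 96 h (-2.91).

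Utf1 stood at 62.5, 613, 706, 634, 499, 448 and 254 FPKM. It was the lowest of the 4 genes at 0 h and the highest at each later timepoint. It was above its 0 h value by 9.81-fold at 24 h, 11.3-fold at 36 h and 4.05-fold at 96 h. Its rank went from 1729 at 0 h to 159 at 24 h.

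Sall4 stood at 111, 161, 133, 125, 80.1, 72.3 and 115 FPKM. Its log2 ratio to 0 h was 0.54 at 24 h and 0.05 at 96 h. It was the only 1 of the 4 genes whose 96 h value lay above its 72 h value.

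Set against all genes, 1 of 4 members was called at 24 h, where 23.0% of 12884 genes were called in either direction. Both 36 h and 48 h had 2 calls, against 28.1% and 29.2% of all genes, as did 60 h and 72 h, against 29.0% and 30.8%. At 96 h 3 of the 4 were called, against 33.3% of all genes. The members' shares are thus near or above the background, on only 4 genes, and the 6 comparisons share the 0 h value. Between neighbouring timepoints the calls were fewer. Utf1 rose from 0 to 24 h (8.64% of all genes were higher), and Pou5f1 fell from 72 to 96 h (5.01% were lower). No member was called from 24 to 36 h, 36 to 48 h, 48 to 60 h or 60 to 72 h, where 11.7%, 4.79%, 9.24% and 5.24% of all genes were.

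Relative to 24 h, a timepoint with less fibroblast marker RNA, Utf1 was inside the limit from 36 to 72 h and lower at 96 h (log2 ratio -1.27). Pou5f1 was lower from 60 h on, at log2 ratios of -1.01, -1.18 and -3.45. Sox2 was lower from 48 h on, and Sall4 was lower at 60 and 72 h but not at 96 h. The 60 h call of Sall4, at -1.01, was lost with 1 FPKM added. Against 24 h, 1 member was thus lower at 48 h and 3 each at 60, 72 and 96 h, where 8.21%, 11.3%, 13.3% and 16.3% of all genes were lower.

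Other lists moved during the same time. All 8 markers of the formative state, the step that follows naive pluripotency, were higher at 24 h than at 0 h, where 8.64% of all genes were. Of 6 neurectoderm markers 5 could be tested at 96 h and all 5 were higher, whereas of 9 mesendoderm markers 5 could be tested and 3 were lower, where 16.8% of all genes were higher and 16.4% lower. Against 24 h, 4 of 5 neurectoderm markers tested were higher at 96 h and none lower, and of 3 mesendoderm markers 1 was higher and 1 lower, with 20.5% of all genes higher and 16.3% lower. The 7 trophoblast markers summed to 64.0, 357 and 959 FPKM at 0, 72 and 96 h. Without the keratin genes Krt8 and Krt18 the sums were 39.7, 11.4 and 16.1 FPKM. The part of such cells in the courses of the 4 genes was not tested.

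The balance between Pou5f1 and Sox2 differed between timepoints. The ratio of their FPKM values was 0.805, 1.84, 2.79, 4.40, 3.95, 3.33 and 0.772 at the 7 timepoints in order. Pou5f1 was thus above Sox2 only between the ends of the time course. The ratio of Sall4 to Pou5f1 lay between 0.557 and 0.612 from 0 to 72 h and was 4.50 at 96 h. The ratio of Utf1 to Pou5f1 was 0.314, 3.26, 3.65 and 9.95 at 0, 36, 72 and 96 h.

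**Figure D2:**
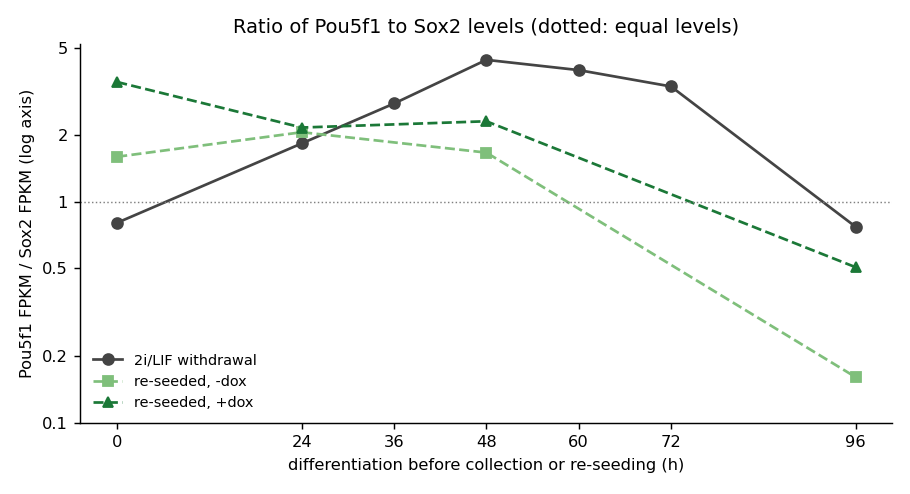
Ratio of Pou5f1 to Sox2 FPKM (log axis) against hours of differentiation before collection (grey circles) or re-seeding without dox (light green squares) or with dox (dark green triangles). Each point is the ratio of 2 values, each combining 2 replicates, and the dotted line marks equal levels. The ratio is highest at 48 h of withdrawal (4.40) and lowest in the 96 h -dox cells (0.161).

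Return to serum/LIF without dox asks whether the culture medium alone restores these genes. The -dox levels of Pou5f1, Sox2 and Utf1 fell with the time spent in differentiation before re-seeding, and that of Sall4 did not pass the limit. Pou5f1 stood at 359.6, 213, 72.6 and 2.63 FPKM in cells re-seeded from 0, 24, 48 and 96 h. Sox2 stood at 224, 103, 43.4 and 16.3 FPKM, and Utf1 at 653, 478, 298 and 35.8 FPKM. Sall4 stood at 105, 94.2, 97.1 and 59.9 FPKM. Pou5f1 thus fell by 7.09 on the log2 scale from the 0 h to the 96 h -dox cells, and its rank went from 212 to 10470, while Sall4 remained within 2-fold. Against the 0 h -dox cells, 1 member was lower at 24 h, 3 at 48 h and 3 at 96 h, where 11.4%, 17.4% and 21.7% of all genes were lower. These comparisons share the 0 h -dox value.

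Compared with the timepoint at which they were re-seeded, the -dox cells from 0 h had 10.4-fold more Utf1 and no other call (12.0% of all genes were higher). Those from 24 h had no member called, where 25.5% of all genes were. In cells from 48 h Pou5f1 was lower by a log2 ratio of -1.50 and Utf1 by -1.09, where 11.5% of all genes were lower. In cells from 96 h Pou5f1 (-3.28), Utf1 (-2.82) and Sox2 (-1.01) were lower and Sall4 (-0.94) was inside the limit, where 11.2% of all genes were lower. The Sox2 call rests on a ratio at the limit and was lost when 1 FPKM was added to each value or the conditions were rescaled.

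Markers of other cells moved with these values. The 7 trophoblast markers summed to 125, 359, 1815 and 3437 FPKM in the -dox cells from 0, 24, 48 and 96 h, and to 959 FPKM at 96 h of the time course. Krt8 and Krt18, keratins that simple epithelia share, made up most of each of these sums. The 5 other markers summed to 18.6, 30.2, 19.2 and 139 FPKM in the same -dox cells and to 16.1 FPKM at 96 h of the time course. In the -dox cells from 96 h all 7 markers were at 1 FPKM or more and all 7 were higher than at 96 h, where 12.4% of all genes were higher. Cdx2, a defining trophoblast factor, was at 0.124 FPKM in the -dox cells from 48 h and 1.27 FPKM in those from 96 h, and listed at 0 at 96 h of the time course. Elf5, a second such factor, was at 0.169 and 3.44 FPKM in these -dox cells. The fibroblast sum was 158 FPKM in the 96 h -dox cells, with Col1a2 at 86.0 FPKM, against 34.0 FPKM at 96 h. Mesendoderm markers were at lower levels, with sums of 12.3 FPKM in the -dox cells from 48 h against 3.06 FPKM at 48 h, and 15.5 against 5.90 FPKM for 96 h. All 3 that could be tested were higher in the -dox cells from 48 h, among them T (Brachyury), at 5.90 against 0.0653 FPKM, where 15.3% of all genes were. In those from 96 h 3 of 4 were higher, Foxa2, Gata6 and the endoderm factor Sox17, which stood at 6.84 against 0.733 FPKM. Of the 8 formative markers all 8 were lower in the -dox cells from 48 h, and 5 of 7 tested in those from 96 h, where 11.5% and 11.2% of all genes were lower. The part of these cells in the result was not tested.

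Induction of OSKM asks what the factors add to the medium. With dox Pou5f1 was higher in cells from 48 and 96 h, Sox2 in cells from 48 h and Utf1 in cells from 96 h, and Sall4 was lower in cells from 0 h. In cells re-seeded with dox from 0, 24, 48 and 96 h, Pou5f1 stood at 425, 262, 204 and 9.95 FPKM. Sox2 stood at 122, 121, 87.8 and 19.6 FPKM, and Utf1 at 368, 441, 549 and 91.5 FPKM. Sall4 stood at 46.7, 68.7, 87.1 and 51.9 FPKM. Pou5f1 was above its -dox value in all 4 pairs and Sall4 below it in all 4.

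**Figure D3:**
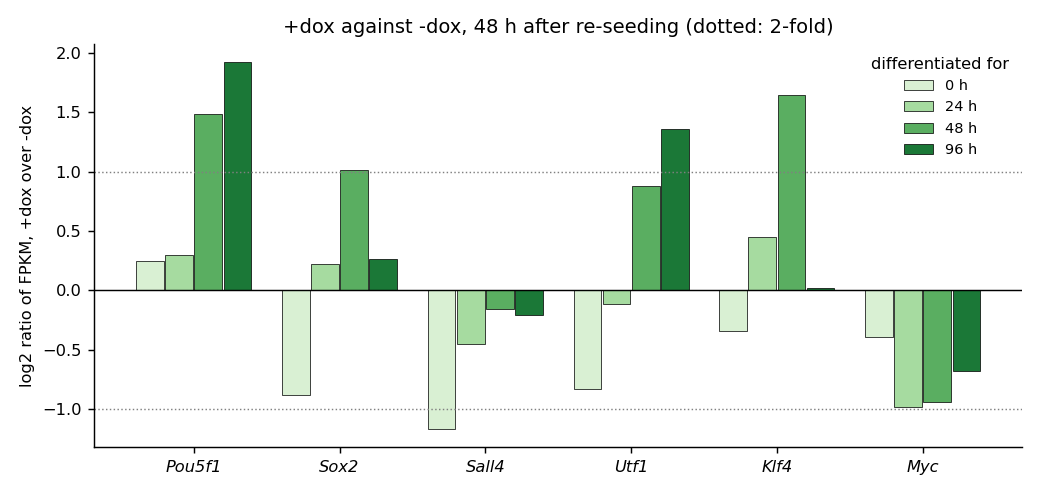
Log2 ratio of FPKM, +dox over -dox, for the 4 genes and the other OSKM factors Klf4 and Myc, with 1 bar for each time of differentiation before re-seeding (0, 24, 48 and 96 h, light to dark). Each bar compares 2 values that combine 2 replicates each, and dotted lines mark 2-fold. Pou5f1 reaches 1.49 at 48 h and 1.92 at 96 h, while Sall4 lies at -1.16 at 0 h. The +dox values of Pou5f1, Sox2, Klf4 and Myc may include transgene RNA.

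For Pou5f1 the log2 ratio of +dox to -dox was 0.24, 0.29, 1.49 and 1.92 in cells from 0, 24, 48 and 96 h. The ratio was largest where the level was lowest, since +dox cells from 96 h held 9.95 FPKM against 2.63 FPKM without dox. For Sox2 it was -0.88, 0.22, 1.02 and 0.27 in the same order. The 48 h value is just past the limit and was lost when 1 FPKM was added. For Utf1 it was -0.83, -0.12, 0.88 and 1.35, and for Sall4 -1.16, -0.46, -0.16 and -0.21. The ratio furthest from 0 thus lay at 96 h for Pou5f1 and Utf1, at 48 h for Sox2 and at 0 h for Sall4.

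At 0 h the only call was lower Sall4, where 5.61% of all genes were lower. At 24 h no member was called, where 6.27% of all genes were. At 48 h Pou5f1 and Sox2 were higher, and at 96 h Pou5f1 and Utf1 were, where 6.56% and 6.67% of all genes were higher. The +dox values of Pou5f1 and Sox2, like those of Klf4 and Myc, may include RNA of the transgenes that dox switches on. Their calls therefore cannot be assigned to the endogenous genes. Of the other factors, Klf4 rose from 4.68 to 14.6 FPKM at 48 h (log2 ratio 1.64) and was at 11.4 FPKM without and 11.6 FPKM with dox at 96 h. Myc was called at none of the 4 times and was below its -dox value at each, for example at 57.6 FPKM without and 36.1 FPKM with dox at 96 h.

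The trophoblast markers also differed with dox. Their sum was 388 FPKM in +dox and 1815 FPKM in -dox cells from 48 h, and 1523 against 3437 FPKM in cells from 96 h. Without Krt8 and Krt18 it was 18.3 against 19.2 FPKM and 27.3 against 139 FPKM. Cdx2 was listed at 0 in the +dox cells from 48 h. At 96 h 6 of the 7 were lower with dox and at 48 h 4 of 5 tested, with 11.1% and 6.46% of all genes lower. The fibroblast sum was 31.3 FPKM in the 96 h +dox cells against 158 FPKM without dox, and the mesendoderm sum 4.26 against 12.3 FPKM in cells from 48 h and 5.64 against 15.5 FPKM in cells from 96 h. In cells from 0 h the mesendoderm sum was higher with dox, at 6.94 against 5.27 FPKM. The formative sum was 123 against 194 FPKM in cells from 0 h, 147 against 212 FPKM from 48 h and 80.6 against 103 FPKM from 96 h. Within that list Otx2, for example, went the other way at 48 h, at 27.7 FPKM with and 13.1 FPKM without dox. It did so at 96 h as well, at 24.5 FPKM with and 16.1 FPKM without dox. The neurectoderm sum was 5.32 against 7.37, 19.8 against 33.2 and 13.5 against 19.5 FPKM in cells from 0, 48 and 96 h. The part of these markers' cells in the differences of the 4 genes was not tested.

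Set beside the starting 0 h cells, the +dox cells from 48 h had a close level of Pou5f1, at 204 against 199 FPKM (log2 ratio 0.03). Sall4 was also inside the limit there, at 87.1 against 111 FPKM (-0.35). Sox2 was 87.8 against 248 FPKM and was called lower, and Utf1 was 549 against 62.5 FPKM and was called higher (28.6% of all genes were called). The +dox values of Pou5f1 and Sox2 may include transgene RNA, so the level of the endogenous genes cannot be read from them. The +dox cells from 0 h had 4 calls, with higher Pou5f1 (1.09) and Utf1 (2.56) and lower Sox2 (-1.02) and Sall4 (-1.25), where 23.4% of all genes were called. Those from 24 h had 2 calls, higher Utf1 and lower Sox2, where 26.2% were. In cells from 96 h Pou5f1 (-4.32), Sox2 (-3.66) and Sall4 (-1.10) were lower, where 18.5% of all genes were lower. All 4 comparisons share the 0 h value, which also carries the fibroblast RNA. With the 0 h -dox cells as the base, which carry little of it but had also been moved from 2i/LIF to serum/LIF, the +dox cells had 6 calls in place of 11, and what the medium and the fibroblast RNA each add cannot be told apart. Utf1, at 653 FPKM in that base, lost its 3 higher calls and was lower in cells from 96 h (-2.83). Pou5f1 in cells from 48 h was 204 against 359.6 FPKM (-0.82), inside the limit, and Sox2 was lower there (-1.35, 13.3% of all genes were). In cells from 24 h no member was called (15.2% of all genes were), in those from 0 h Sall4 alone was lower, and in those from 96 h all 4 were (19.6% of all genes). The last Sall4 call rests on a log2 ratio of -1.01 and was lost with 1 FPKM added or with rescaling. Against the 0 h +dox cells no member was called at 24 h (18.8% of all genes were), Pou5f1 was lower at 48 h (-1.06), and at 96 h Pou5f1 (-5.42), Sox2 (-2.63) and Utf1 (-2.01) were lower, where 13.4% and 19.2% of all genes were lower. Sall4 was inside the limit in all 3 of these.

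Target genes of OCT4 and SOX2 were followed as a list of 8. Fgf4, a growth factor with an OCT4-SOX2 enhancer, stood at 82.6, 79.1, 63.6, 38.6, 31.6, 20.9 and 3.11 FPKM over the time course. Fbxo15, an F-box gene used as a pluripotency reporter, stood at 121, 92.5, 57.8, 34.0, 23.1, 18.7 and 4.81 FPKM. Both passed the limit against 0 h later than Nanog did, which was lower from 24 h on. By 48 h 6 of the 8 were lower than at 0 h and only Dppa4 was higher. The median log2 ratio was -2.13, against -0.02 over all genes tested, of which 17.0% were lower. By 96 h 6 were lower and Lefty1, a Nodal antagonist, was higher, with a median of -4.70 against -0.02 and 16.4% of all genes lower.

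With dox at 48 h 4 of the 8 targets were higher and 1 was lower, where 6.56% of all genes were higher and 6.46% lower. Fgf4 was at 9.14 FPKM without and 54.0 FPKM with dox, Fbxo15 at 17.1 and 41.1 FPKM, Spp1 at 31.7 and 96.6 FPKM, and Zfp42 at 18.1 and 62.9 FPKM. Lefty1 was lower, at 96.2 and 32.4 FPKM. The median log2 ratio was 1.00, against -0.02 over all genes. At 96 h Fbxo15, Nanog and Lefty1 were higher and Spp1 and Tdgf1 lower, with a median log2 ratio of 0.45 against -0.01 over all genes, where 6.67% of all genes were higher and 11.1% lower. Fgf4 then was at 0.581 FPKM without and 1.16 FPKM with dox. At 24 h Fgf4 was the only higher target, at 26.5 FPKM without dox and a log2 ratio of 1.65, and Lefty1 the only lower one, where 2.87% of all genes were higher and 3.4% lower. At 0 h none was higher and Lefty1 was lower, where 3.62% of all genes were higher and 5.61% lower. The median log2 ratio of the 8 was 0.04 at 24 h and -0.53 at 0 h, against 0.02 and 0.05 over all genes.

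**Figure D4:**
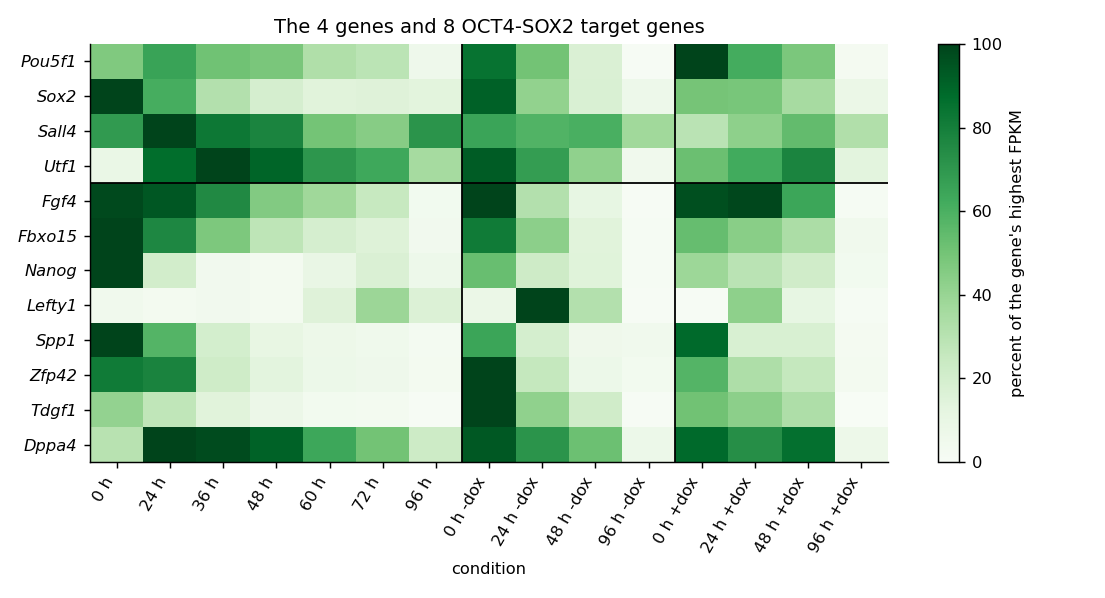
FPKM of the 4 genes (above the line) and of 8 OCT4-SOX2 target genes (below it) in the 15 conditions, as a percent of each gene's own highest value (colour scale 0 to 100). Vertical lines part the time course, the -dox and the +dox cells. Each block is palest at its right end, 96 h, in the rows of Pou5f1, Fgf4 and Fbxo15, and the 96 h -dox column is pale in every row but Sall4, which is at 37.2% of its highest value there.

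A list of 16 transcription factors of the pluripotency network includes Klf4 and shares Nanog and Zfp42 with the targets. Of the 16, 7 were lower and 3 higher at 24 h, and 12 were lower and 1 higher at both 48 h and 96 h. Of all genes 14.3%, 17.0% and 16.4% were lower at these 3 times and 8.64%, 12.1% and 16.8% higher. Against 24 h, 12 of the 16 were lower at 48 h and 15 at 96 h, where 8.21% and 16.3% of all genes were. The 12 that were lower than at 0 h include Esrrb, Tfcp2l1, Klf2, Klf4, Prdm14 and Nr5a2, factors of the naive state. Prdm14 was at 18.8 FPKM before withdrawal and 0.0803 FPKM at 48 h. Compared with them, the drop of Pou5f1 came late. With dox at 48 h 7 of 15 tested were higher and none lower, among them Esrrb (8.31 and 56.2 FPKM) and Tfcp2l1 (7.84 and 31.5 FPKM), with a median log2 ratio of 0.65, and 6.56% of all genes were higher. The 7 include Klf4, whose +dox value may include transgene RNA, and Tbx3, just past the limit (4.33 and 8.76 FPKM). At 96 h 3 of 14 tested were higher and 3 lower, where 6.67% of all genes were higher and 11.1% lower. Of 20 genes of the NuRD, BAF and other cofactor complexes known to bind OCT4 or SALL4, 2 were higher at 24 h, 1 at 48 h and 2 lower at 96 h, where 23.0%, 29.2% and 33.3% of all genes were called. None of the 20 was called with dox at any of the 4 times, where 9.23%, 6.27%, 13.0% and 17.7% of all genes were.

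Relatives of these factors moved in both directions. Pou3f1 (Oct6), a POU factor of the formative epiblast, stood at 0.827 FPKM at 0 h, 27.9 at 24 h, 69.6 at 48 h and 25.9 FPKM at 96 h, when Pou5f1 was at 25.5 FPKM. Sox3, a SOXB1 gene like Sox2, stood at 0.959, 9.48, 28.0 and 15.9 FPKM at these times. Sall2 stood at 1.76, 9.72, 25.5 and 24.0 FPKM, whereas Sall1 was within 2-fold of 0 h at all 6 later timepoints, at 34.0 to 56.1 FPKM up to 72 h and 22.6 FPKM at 96 h. Pou2f3, the most abundant POU relative at 0 h, stood at 21.5, 8.59, 5.22, 4.87, 1.30, 1.48 and 0.257 FPKM over the 7 timepoints and was thus lower than at 0 h at all 6 later ones. Sox4 and Sox11, SOXC genes of differentiating cells, went from 3.60 to 47.9 and from 0.566 to 19.2 FPKM. Sox15, a SOX gene of pluripotent cells, went the other way, from 31.7 to 8.29 FPKM.

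**Figure D5:**
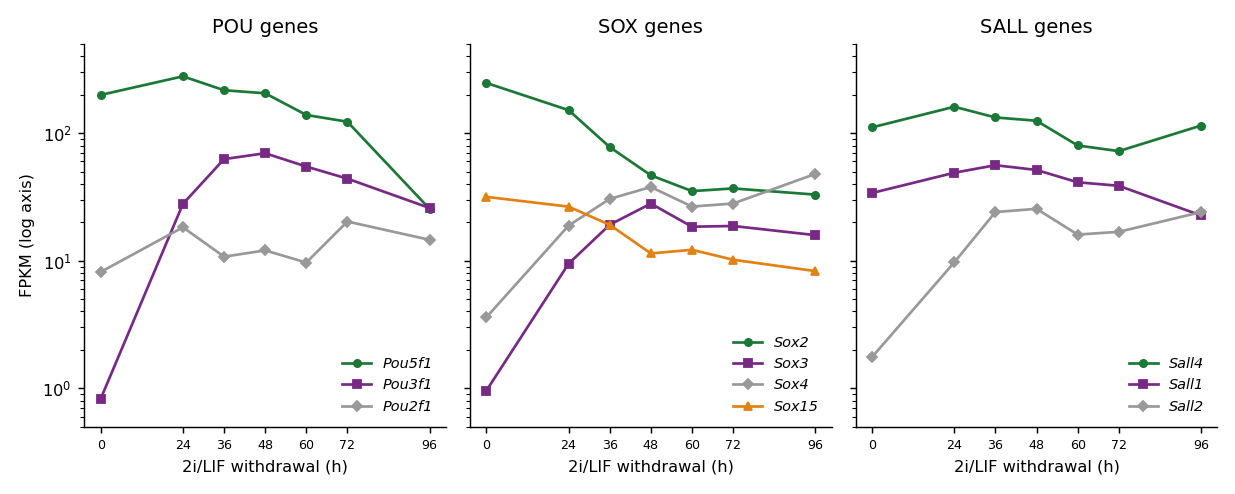
FPKM (log axis) over 7 timepoints of 2i/LIF withdrawal for selected POU (left), SOX (middle) and SALL genes (right). Each point is 1 value that combines 2 replicates. Pou3f1 meets Pou5f1 at 96 h (25.9 and 25.5 FPKM), and Sox3 and Sall2 rise from 0.959 and 1.76 FPKM at 0 h to 28.0 and 25.5 FPKM at 48 h.

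With dox at 48 h, 3 POU, 9 SOX and 2 SALL relatives could be tested. Of these 0, 1 and 0 were higher and 1, 3 and 1 lower, where 6.56% of all genes were higher and 6.46% lower. The 3 relatives described above, Pou3f1, Sox3 and Sall2, were among the lower ones. Pou3f1 was at 23.9 FPKM without and 7.61 FPKM with dox, Sox3 at 10.5 and 2.31 FPKM, and Sall2 at 9.97 and 1.69 FPKM. Sox15 was higher, at 5.61 and 20.6 FPKM. Sox4 (31.8 and 19.7 FPKM), Sox11 (13.0 and 9.59 FPKM) and Sall1 (log2 ratio 0.82) were inside the limit. Pou3f1 and Sox3 thus fell where Pou5f1 and Sox2 rose, Sox15 rose with them, and Sall4 itself was inside the limit where Sall2 fell. The rises of Pou5f1 and Sox2 may include transgene RNA, and that of Sox2 was just past the limit. In whole families, 6 of 14 POU genes, 8 of 18 SOX genes and 3 of 3 SALL genes could be tested at 48 h against 0 h, of which 2, 4 and 1 were higher and 1, 4 and 1 lower, where 12.1% of all genes were higher and 17.0% lower.

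The 4 genes varied unequally over all 15 conditions. The highest value was 162-fold the lowest for Pou5f1, 19.7-fold for Utf1, 15.2-fold for Sox2 and 3.45-fold for Sall4. Utf1 was the highest of the 4 in 12 conditions, Sox2 at 0 h, Pou5f1 in the 0 h +dox cells and Sall4 in the 96 h -dox cells. The commonest order, in 5 conditions, was Utf1, Pou5f1, Sall4 and Sox2. Because no spread is known, which neighbours in these orders differ beyond their error cannot be said. Across the 15 conditions Pearson's r of log2(FPKM + 1) was 0.82 between Pou5f1 and Sox2, 0.76 between Pou5f1 and Utf1, and between 0.36 and 0.41 for the 4 other pairs. Over the 7 timepoints alone it was 0.59 for Pou5f1 and Sox2, 0.20 for Pou5f1 and Utf1 and -0.50 for Sox2 and Utf1. These are descriptions over conditions that share a cell line and a course of differentiation.

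The genes most like each member were sought by the same measure among 9067 genes that reached 10 FPKM. Beside Gm19553 (r = 0.988), which ran from 0.600 to 81.1 FPKM and whose reads cannot be told from those of Pou5f1, the genes most like Pou5f1 were Etv5 (r = 0.970), Rbpms2 (0.965), Fgf4 (0.964) and Psma8 (0.963). Etv5 is an ETS factor of the FGF pathway and ran from 4.73 FPKM in the 96 h -dox to 145 FPKM in the 0 h -dox cells. The genes most like Sox2 were Zfp42 (Rex1, 0.971), Xrcc5 (0.955), Kat6b (0.954), Triml1 (0.953) and Zyg11a (0.950). Zfp42, a marker of the naive state, ran from 7.26 to 246 FPKM. Those most like Sall4 were Cnot4 (0.940), Twistnb (0.896), Etaa1 (0.885), 2410016O06Rik (0.880) and Lmnb1 (0.877). For Utf1 they were Enpp3 (0.961), Phc1 (0.930), Diexf (0.929), Slc7a7 (0.925) and Ctbp2 (0.923). Phc1 is a subunit of a Polycomb repressive complex and ran from 25.3 to 349 FPKM. No gene was among the 5 of more than 1 member.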

How the data were processed

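RNA-seq of polyadenylated RNA was analysed in 30 samples, grouped by their labels into 15 conditions of 2 replicates. According to the paper's methods and the submitters' notes, the authors mapped reads to mm10 with TopHat2 2.0.14, quantified Gencode transcripts with Cufflinks 2.2.1 and ran Cuffdiff. The deposited FPKM values combine both replicates of a condition, and the table also holds 5 columns of the authors' own calls of dynamic and dox-responsive genes, which were not used.

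Values were used as deposited, since median-ratio factors ran from 0.990 to 1.03, and compared as plain ratios with Python 3.11.15, numpy 2.4.6 and pandas 2.3.3. A gene was tested where the higher of its 2 values reached 1 FPKM and called at 2-fold. Likeness was Pearson's r of log2(FPKM + 1), and 5 genes per member are named, beside the members, Klf4, Myc and genes of the 14 lists. The members and lists were chosen with earlier results of these data known.

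Low values of 1380 genes with 1 transcript fall on steps that give an estimated depth of 5830000 to 26450000 fragments per library, if each value is the mean of its 2 libraries. The lowest member value, Pou5f1 in the 96 h -dox cells, then rests on about 54 fragments, a counting error of 13.6%, and that of the other 3 genes was at most 4.32%. This covers counting error only. Alternatives were other fold limits, pseudocounts, scaling and base conditions, and other likeness measures.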

Additional observations from a re-analysis of the deposited data

Results flagged for a closer look

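In 2 of the 4 genes the difference between +dox and -dox cells turned its direction with the time of differentiation. For Sox2 the log2 ratio was -0.88 in cells re-seeded from 0 h and 1.02 in those from 48 h. For Utf1 it was -0.83 in cells re-seeded from 0 h and 1.35 in those from 96 h. Both negative values were inside the 2-fold limit. The Sox2 value at 48 h was just past it and fell inside it with 1 FPKM added. The +dox values of Sox2 may also include transgene RNA. The difference between the times was not tested, because each condition has 1 combined value.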

How the results depend on the processing

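No paired analysis was possible because the table gives 1 value per condition in which both replicates are combined, and for the same reason no replicate could be left out. The call counts of the members depend on the fold limit. At 1.5-fold the 2 calls between neighbouring timepoints became 8 and the 5 calls of +dox against -dox became 8. At 3-fold the latter became 1, the 6 calls of -dox cells against their timepoint became 3, and the 11 calls of +dox cells against 0 h became 5. With the 0 h -dox cells as the base, an alternative added after seeing the data, the 11 became 6. The 12 calls against 0 h in the time course were 15 at 1.5-fold and, with 24 h as the base, also added after seeing the data, 10. Of 96 log2 ratios of members checked with 0.1 or 1 FPKM added or with rescaling, none changed sign. They cover the time course against 0 h, neighbouring timepoints, +dox against -dox, -dox against the same timepoint and +dox against 0 h. Comparisons with 24 h, 0 h -dox or 0 h +dox as the common base were not among them. Among the 96 ratios, adding 1 FPKM moved 3 by more than 0.1, all of Pou5f1 at 96 h. The dox ratio went from 1.92 to 1.59, and that of -dox against 96 h from -3.28 to -2.87. For +dox against 0 h it went from -4.32 to -4.19. Of the 5 genes most like each member, Spearman's rho kept 1 for Pou5f1, 3 for Sall4, 2 for Utf1 and 4 for Sox2. A minimum of 1 FPKM in place of 10 kept 3 for Sall4, 4 for Sox2 and all 5 for Pou5f1 and Utf1. The time course alone kept 2 for Pou5f1, 1 for Utf1 and 0 for Sox2 and Sall4.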
